A study of Mus musculus with 22 samples.

Results

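In the mouse aorta-gonad-mesonephros (AGM) region, 7 genes had levels that did not overlap between a pair of sorted endothelial populations, though for Fam167b by a single read. Clec4e, Htra1, Akr1c14 and Bmx were high in CD44LowKitNeg endothelial cells and low or undetected in CD44Neg endothelial cells, and Lhx6, Fam167b and Kcne3 had the opposite pattern. They are 7 of 24454 genes in the count table. They were chosen by their levels: values in the 6 CD44LowKitNeg libraries did not overlap those in the 10 CD44Neg libraries, as for 615 of 11022 genes tested (5.58%, with 2.5% above and 3.08% below). The levels in these 2 populations are therefore a description and carry no test. Values from CD44LowKitPos and CD44High were not part of that choice. The single stages are the same 16 libraries that chose the genes, so that a test between stages is another contrast on those libraries and not independent of the choice. The choice was made among non-overlapping genes with large differences. The smallest fitted difference among the 7 was a log2 fold change of 3.77, for Bmx, and 140 of the genes tested differed by at least as much in either direction. Of those 140, 56 did not overlap, 30 higher and 26 lower in CD44LowKitNeg. Just outside were Pde3a, whose lowest CD44LowKitNeg value of 5.33 lay under the highest CD44Neg value of 5.43, and Tmem108, whose lowest CD44Neg value of 0.892 lay under the highest CD44LowKitNeg value of 1.01, all as normalized CPM, which is the read count scaled to the size of its library.

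The data are bulk RNA-seq of 22 libraries, each from 25 sorted VE-cadherin-positive cells of C57BL/6 embryos, made with the Smart-seq2 protocol, which amplifies polyadenylated RNA. The labels name 4 populations. CD44Neg, labelled endothelial, had 10 libraries, of which 4 came from E9.5, 3 from E10 and 3 from E11. CD44LowKitNeg, labelled haemogenic endothelial, had 6, with 1 from E9.5, 2 from E10 and 3 from E11. CD44LowKitPos, labelled pre-HSPC (a step before the haematopoietic stem and progenitor cell), had 3, with 1 from E9.5 and 2 from E10, and CD44High, labelled HSPC, had 3, all at E11. Replicates are numbered 1 to 22 across the whole series: CD44Neg 1 to 10, CD44LowKitNeg 11 to 16, CD44LowKitPos 17 to 19 and CD44High 20 to 22. Nothing in the labels says that replicates came from separate embryos, so p-values measure only the spread between these libraries, and the label dates change with stage, so date and stage cannot be told apart.

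Libraries held 3912350 to 8657546 counts, and 3 counts, taken here as the detection floor, corresponded to 0.348 to 0.816 CPM. Cd44 itself was at 29.9 ± 19.5 CPM in CD44Neg (SD, n = 10) and at 254 ± 78.7 in CD44LowKitNeg (n = 6), and Kit was at 229.7 ± 50.1 in CD44LowKitPos (n = 3) against 46.9 ± 17.3 in CD44LowKitNeg. The summed level of 8 endothelial markers was 3519 to 5924 CPM in CD44Neg and 3723 to 8666 in CD44LowKitNeg, but 766 to 1854 in CD44LowKitPos and 14.3 to 78.8 in CD44High. Cdh5, which encodes the VE-cadherin used for sorting, had no count in any CD44High library. The summed level of 10 macrophage markers was at most 16.95 CPM in CD44Neg and 72.4 in CD44LowKitNeg, 168 to 230 in CD44LowKitPos and 3760 to 6086 in CD44High. That of 8 granulocyte markers was at most 9.73 CPM in CD44Neg and 11.5 in CD44LowKitNeg. It was 84.3 to 288 in CD44LowKitPos and 1075 to 7835 in CD44High. In 20 of 22 libraries the most similar library was of the same population. The exceptions were the E9.5 libraries CD44LowKitNeg replicate 14 and CD44LowKitPos replicate 19, which were most similar to each other. Ratios that moved by over 1.5 times without either of them are given without it as well.

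During the endothelial to haematopoietic transition (EHT), haemogenic endothelial cells of the embryonic aorta lose endothelial identity and give rise to blood progenitors. Arterial identity, which depends on Notch signalling, is acquired in the same vessel, and arterial and venous endothelial cells express different sets of receptors and transcription factors. The 7 genes do not form a known pathway. They encode a pattern recognition receptor (Clec4e), a secreted protease (Htra1), a steroid-metabolizing enzyme (Akr1c14), an intracellular kinase (Bmx), a transcription factor (Lhx6), a protein without a well-defined function (Fam167b) and a potassium channel subunit (Kcne3). In bulk libraries, fewer cells expressing a gene and less RNA per cell cannot be told apart.

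All 7 genes matched the RefSeq promoter table (GRCm38.p6), with 10 windows covering the 250 bases before an annotated start, out of 32851 windows in all. The promoters below are shown because they hold the less common motifs found among the 7 genes. Capitals mark the TATA box letters TATAAA (in Clec4e) and the RBPJ letters TGGGAA, to which the nuclear effector of Notch can bind (in the others). Each runs 5′ to 3′ on the strand of its gene.
Clec4e, chr6:123289872-123290121, minus strand: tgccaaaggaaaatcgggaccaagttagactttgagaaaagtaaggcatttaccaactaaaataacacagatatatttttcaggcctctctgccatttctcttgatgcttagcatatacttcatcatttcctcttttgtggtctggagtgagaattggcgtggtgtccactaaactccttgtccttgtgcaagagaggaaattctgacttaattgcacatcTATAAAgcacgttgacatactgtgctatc
Bmx, chrX:164258194-164258443, minus strand: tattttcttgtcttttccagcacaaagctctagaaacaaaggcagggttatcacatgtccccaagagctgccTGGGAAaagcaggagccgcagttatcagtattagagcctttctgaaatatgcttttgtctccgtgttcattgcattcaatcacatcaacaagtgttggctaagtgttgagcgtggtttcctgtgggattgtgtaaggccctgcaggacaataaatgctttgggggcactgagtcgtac
Fam167b, chr4:129578581-129578830, minus strand: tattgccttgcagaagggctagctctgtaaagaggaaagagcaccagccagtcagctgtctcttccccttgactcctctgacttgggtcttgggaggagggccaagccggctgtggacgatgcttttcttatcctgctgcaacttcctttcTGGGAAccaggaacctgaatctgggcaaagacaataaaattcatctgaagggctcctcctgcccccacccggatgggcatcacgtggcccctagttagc
Kcne3, chr7:100178433-100178682, plus strand: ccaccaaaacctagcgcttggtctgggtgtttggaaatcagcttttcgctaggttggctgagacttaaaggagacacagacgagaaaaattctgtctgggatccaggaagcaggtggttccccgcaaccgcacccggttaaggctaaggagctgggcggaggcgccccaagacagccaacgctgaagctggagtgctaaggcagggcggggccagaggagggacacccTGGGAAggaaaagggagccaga

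TATAAA lay with its first base 29 bases upstream of the Clec4e start, and 12.4% of all windows held these letters on either strand. The Clec4e window also held the RUNX letters TGTGGT 114 bases upstream, as did 14% of all windows. TGGGAA lay 178 bases upstream in Bmx, 99 in Fam167b and 22 in the second Kcne3 window. These letters were in 21.6% of all windows, and were found in a gene high in CD44LowKitNeg as well as in 2 genes low in it. TGGGAA contains the ETS core letters GGAA, which were in 10 of 10 windows of the 7 genes and in 93.4% of all windows. The GATA letters GATAA were in the windows of Akr1c14, Bmx and Fam167b and in 22.6% of all windows, the KLF letters CACCC in windows of Fam167b, Kcne3 and Htra1 and in 52% of all, and the E-box letters CANNTG in 6 of 10 and in 66.2% of all. The nuclear receptor letters AGGTCA were in none of the 10 windows and in 14% of all. The G and C share of the windows ran from 38.8% in Akr1c14 and 39.6% in Clec4e to 64.8% in Htra1, beside a median of 52.4% over all windows.

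Clec4e encodes Mincle, a C-type lectin receptor of myeloid cells that recognizes microbial glycolipids and damaged cells and signals through the Fc receptor gamma chain. The gene lies on chromosome 6 (GRCm38, 123281789 to 123289870, minus strand). It had no count in 9 of 10 CD44Neg libraries and 14 counts, 2.01 CPM, in replicate 7 at E9.5. In CD44LowKitNeg it was at 17.04 CPM at E9.5, at 132 and 13.3 at E10, and at 11.2, 12.9 and 42.1 at E11, a mean of 38.2 ± 47.6 (SD, n = 6). The E11 libraries differed from the earlier ones by -1.25 on the log2 scale (SE 0.92, adjusted p = 0.577 by edgeR's quasi-likelihood test), which turned to 0.57 without CD44LowKitNeg replicate 15. Every CD44LowKitNeg library was thus above every CD44Neg library, and the lowest was 5.55-fold above the highest of CD44Neg. The ratio of means was 189.9, and its denominator came from 1 library. Without CD44Neg replicate 7, CD44LowKitNeg was at least 61.0-fold higher, and without CD44LowKitNeg replicate 15 the ratio was 96.1.

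Clec4e was the one gene of the 4 whose levels in CD44LowKitPos overlapped those in CD44LowKitNeg. It was at 29.6 and 45.4 CPM in the E10 libraries and at 5.58 in the E9.5 library of CD44LowKitPos, above every CD44Neg library, as for 5.29% of genes tested. The mean of 26.9 (SD 20.03, n = 3) was 0.704 of that in CD44LowKitNeg, with 1.39 without CD44LowKitNeg replicate 15 and 0.461 without CD44LowKitPos replicate 18. In CD44High it was at 0, 1.60 and 1.09 CPM, below every library of CD44LowKitNeg (11.7% of genes) and CD44LowKitPos (12% of genes). The CD44LowKitPos mean was 30.0-fold above the CD44High mean, which rested on 6 and 4 counts. The fold was 49.4 without CD44High replicate 21, 19.995 without replicate 20 and 19.7 without CD44LowKitPos replicate 18.

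Few of the genes around Mincle could be tested. Of 12 neighbour and signalling genes 3 passed the filter on low counts, and 0 of these were called between CD44LowKitNeg and CD44Neg by edgeR's quasi-likelihood test (10.2% of all genes), 0 at an unadjusted p under 0.05 (32.6%) and 0 by DESeq2 or limma voom, with a median log2 fold change of -0.02 beside 0.01 over all genes tested. Fcer1g, the gamma chain through which Mincle signals, was at 2.12 ± 3.82 CPM in CD44LowKitNeg (SD, n = 6) and at 1.67 ± 3.04 in CD44Neg (n = 10), against 58.5 ± 21.1 in CD44LowKitPos and 722 ± 247 in CD44High (n = 3 each), where the difference of the last pair had an adjusted p of 0.118 by edgeR. The cluster neighbours Clec4d and Clec4n had no count in any CD44Neg or CD44LowKitNeg library and were at 16.5 and 13.05 CPM in CD44High, where Clec4e itself was near the floor. Clec4a2, at 185 ± 82.4 CPM in CD44High (SD, n = 3) and at most 2.33 in any other library, and Clec4a3, at 55.0 ± 34.7 and without a count elsewhere, were called higher in CD44High than in CD44LowKitPos, as were 0.78% of all genes tested. Both passed the filter on low counts through CD44High, so nothing is read from their number. Of the 10 macrophage markers, Adgre1, C1qa, C1qb and C1qc had no count in CD44LowKitNeg. In CD44Neg, Csf1r, Cx3cr1 and Fcgr1 had none either, besides these 4. The summed level of the 10 had a median of 19.4 CPM in CD44LowKitNeg and 8.05 in CD44Neg. Mrc1 (log2 fold change 1.38, adjusted p = 0.463) and Cd68 (-2.47, adjusted p = 0.186) were not called between these populations by edgeR. The summed level was 40.3 CPM in CD44LowKitNeg replicate 15, where Clec4e was highest, and 72.4 in replicate 14, where Clec4e was at 17.04.

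**Figure D1:**
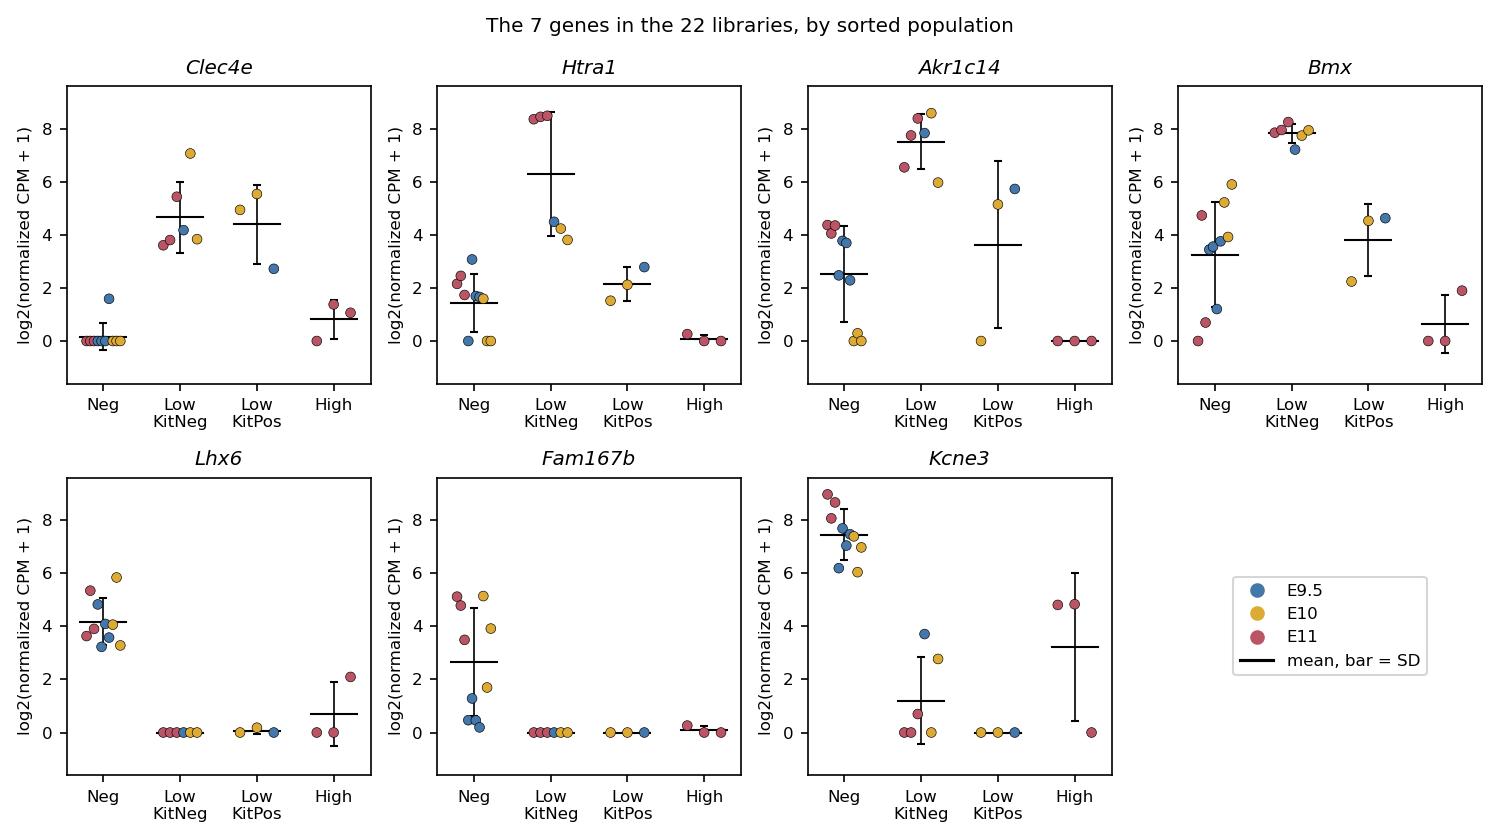
Level of each of the 7 genes in the 22 libraries, as log2(normalized CPM + 1) on the vertical axis, by sorted population. Points are libraries coloured by stage, the line is the mean and the bar the SD of these log values. Htra1, Akr1c14 and Bmx are highest in CD44LowKitNeg, Clec4e overlaps between CD44LowKitNeg and CD44LowKitPos, while Lhx6 and Fam167b are at 0 in all 6 CD44LowKitNeg libraries.

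Htra1 encodes a secreted serine protease that cleaves extracellular matrix proteins and can restrain TGFβ signalling. The gene lies on chromosome 7 (130936111 to 130985660, plus strand). In CD44Neg it ran from 0 to 7.40 CPM with a median of 2.19. In CD44LowKitNeg it was at 21.4 CPM at E9.5, at 17.8 and 12.99 at E10, and at 325, 346 and 356 at E11. Both groups of stages lay above all of CD44Neg, by 1.76-fold between the nearest libraries, but Htra1 had 2 separate levels within CD44LowKitNeg.

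These are the libraries whose high levels chose the gene, so the stage difference is not independent of the choice. Within CD44LowKitNeg, Htra1 rose at E11 against E9.5 and E10 by 4.34 on the log2 scale (SE 0.28, adjusted p = 7.72e-04, edgeR's quasi-likelihood test). It was 1 of 19 genes called among 11010 tested (0.173%, with 0.109% higher at E11), and was higher in 3 of 3 E11 libraries. With any library left out, 0 to 2 genes in all were called. The 3 E11 values differed little (342 ± 15.5 CPM, SD, n = 3), a coefficient of variation of 4.53%. Leaving out CD44LowKitNeg replicate 12 or 13 gave adjusted p = 0.0143 and 0.0157, above the threshold of 0.01, with log2 fold changes of 4.32 and 4.30. Without replicate 14, the E9.5 library, it was 4.49 (adjusted p = 0.00476). In CD44Neg, Htra1 was at 3.41 ± 1.08 CPM at E11 (SD, n = 3) and 2.95 ± 3.14 at E9.5 (n = 4), a difference of 0.23 on the log2 scale (SE 1.69, adjusted p = 0.971 by edgeR) that turned to -0.18 without CD44Neg replicate 4 and -0.027 without replicate 2. Its E10 libraries were lower, at 2.01, 0 and 0 CPM, and all E11 libraries of CD44Neg lay above them, by 2.30 on the log2 scale (SE 1.92, adjusted p = 0.818 by edgeR). The difference between the populations in their change from E10 to E11 was 2.23 (SE 1.03, adjusted p = 0.468 by edgeR) and turned to -2.83 without CD44Neg replicate 8, so a change of Htra1 particular to CD44LowKitNeg was not shown. The E11 libraries also had lower haematopoietic marker levels, with the 8 markers at 53.0 to 70.2 CPM against 132 to 308 at the earlier stages, and macrophage markers at 0 to 9.95 against 28.9 to 72.4. Runx1, the transcription factor required for EHT, was lower at E11, where no CD44LowKitNeg library held a count of it (adjusted p = 0.00759 by edgeR). The summed endothelial markers were at 7230 to 8666 CPM at E11 against 3723 to 5004 earlier (median log2 fold change 1.12, with 0 of 8 called by edgeR and 6 at an unadjusted p under 0.05, beside 16.8% of all genes). The share of counts from Rn45s, the ribosomal RNA precursor, was 17.4% to 19.2% at E11 against 7.29% to 11.1% earlier, and with Rn45s left out of the fit the Htra1 difference was 4.33 (adjusted p = 7.90e-04 by edgeR). The 8 mesenchyme markers summed to 57.7, 8.15 and 63.0 CPM in the E11 libraries. They summed to 20.3 at E9.5 and to 5.71 and 4.19 at E10, so these ranges overlapped. The part of the marker differences in the result was not tested.

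Htra1 was low in the other populations. It was at 1.86, 3.34 and 5.88 CPM in CD44LowKitPos, below all CD44LowKitNeg libraries, as for 7.35% of genes tested, within the range of CD44Neg and 48.7-fold below the CD44LowKitNeg mean. CD44LowKitPos had no E11 library, and against CD44LowKitNeg of the same stage it was 5.92-fold lower at E10 and 3.65-fold lower at E9.5. In CD44High a single count was found, in replicate 20. The overlapping gene Fgfr2 lies on the other strand, shares no exonic base with Htra1 and was at most 6.66 CPM in any library.

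Between CD44LowKitNeg and CD44Neg, genes of the HTRA family and of its matrix substrates did not move as 1 group. Of 10 genes, 7 were tested between CD44LowKitNeg and CD44Neg, where 10.2% of all genes were called (4.94% higher and 5.23% lower), and 3 rose and 2 fell (median log2 fold change 0.17). Fibronectin (Fn1) rose by 2.60, the TGFβ-binding Ltbp1 by 3.79 and the fibulin Efemp1 by 5.86. Htra2, a mitochondrial protease, fell by 1.52, and Tgfbi, at 38.8 ± 51.6 CPM in CD44Neg (SD, n = 10), had no count in any CD44LowKitNeg library. Within CD44LowKitNeg, 1 of 7 tested list genes was called at E11 against earlier stages (0.173% of all genes). This was Fbln5, higher at E11 (log2 fold change 8.92, adjusted p = 0.00871 by edgeR), without a count in 2 of 6 libraries. At an unadjusted p under 0.05 there were 4 of the 7 (16.8% of all genes). The median log2 fold change of the 7 was 0.96, beside 0.02 over all genes tested.

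Akr1c14 encodes a 3-alpha-hydroxysteroid dehydrogenase of the aldo-keto reductase family. The gene lies on chromosome 13 (4049011 to 4090688, plus strand). In CD44LowKitNeg it was at 226 CPM at E9.5, at 381 and 61.4 at E10, and at 92.0, 213 and 332 at E11. The stages were mixed in this order, and the lowest lay 3.13-fold above the highest CD44Neg library. The ratio of means was 24.8. Within CD44LowKitNeg, E11 differed from the earlier stages by -0.02 on the log2 scale (SE 0.62, adjusted p = 0.993 by edgeR), and by 0.34 without CD44LowKitNeg replicate 11 and 0.59 without replicate 15.

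In CD44Neg, by contrast, Akr1c14 was low at E10. It was at 4.55, 12.6, 11.9 and 3.87 CPM at E9.5, at 0, 0.224 (1 count) and 0 at E10, and at 19.6, 15.6 and 19.4 at E11. The 3 groups of libraries did not overlap. The log2 fold changes were -6.40 for E10 against E9.5 (SE 1.17, adjusted p = 0.0222) and 7.56 for E11 against E10 (SE 1.22, adjusted p = 0.0373), tested with edgeR. Neither passed 0.01, as 2 genes (0.0178%) and 0 genes (0%) of 11250 did, and DESeq2 called both. E11 against E9.5 gave 1.16 (SE 0.77, adjusted p = 0.506 by edgeR). The change from E10 to E11 differed between the populations by -7.67 (SE 1.31, adjusted p = 0.0342 by edgeR), where 1 of 12403 genes (0.00806%) was called and 0.185% passed 0.05. At an unadjusted p under 0.05 there were 3 of the 7 genes, Akr1c14, Kcne3 and Htra1 (10.7% of all genes), and no SE could be had for 3 others. These libraries chose the genes, and Kcne3 was nearly absent from CD44LowKitNeg, so nothing is read from that share. With 1 library left out, the adjusted p of the Akr1c14 difference by edgeR ran from 0.00291 (without CD44LowKitNeg replicate 16) to 0.130. It passed 0.01 by DESeq2 (adjusted p = 4.18e-05) and by edgeR without a filter, and by limma voom it was 0.446.

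In CD44LowKitPos the 3 libraries differed. Akr1c14 had no count in replicate 17 at E10, was at 34.3 CPM in replicate 18 at E10 and at 51.9 in replicate 19 at E9.5. All 3 were below the CD44LowKitNeg libraries, and the mean was 7.57-fold lower, or 12.7-fold without CD44LowKitPos replicate 19 and 5.05-fold without replicate 17. No count was found in any CD44High library, as for 6.57% of genes tested, so that CD44LowKitPos was at least 39.0-fold higher, or at least 23.3-fold without CD44LowKitPos replicate 19. Of 18 related reductases, 7 were tested between CD44LowKitNeg and CD44Neg and 0 were called by edgeR, DESeq2 or limma voom or at an unadjusted p under 0.05 (median log2 fold change -0.03), where 10.2% and 32.6% of all genes were by edgeR. The closest relatives measured were low. Akr1c12 was at 1.66 ± 2.07 CPM and Akr1c13 at 5.80 ± 3.79 in CD44LowKitNeg (SD, n = 6), and Akr1c6, Akr1c18 and Akr1c21 had no count in any library. Members of this gene cluster resemble each other, and how reads matching several of them were counted is not given in the sources used here. The pseudogene Gm18857 shares 7.22% of the exonic bases of Akr1c14.

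Bmx encodes a cytoplasmic tyrosine kinase of the TEC family, known for its expression in arterial endothelium and endocardium. The gene lies on chromosome X (164192842 to 164258193, minus strand). In CD44LowKitNeg it was at 147 CPM at E9.5, at 212 and 243 at E10, and at 228, 245 and 302 at E11. The mean of 229 ± 50.7 (SD, n = 6) had a coefficient of variation of 22.1%, the smallest of the 4 genes that were high in this population. CD44Neg was not empty of Bmx, with values from 0 to 58.5 CPM and a median of 11.6. Its 3 highest libraries were replicates 10 (E10), 8 (E10) and 2 (E11). The E10 libraries, with a mean of 36.2 ± 22.2 (n = 3), were above the E9.5 libraries, with 8.60 ± 4.98 (n = 4), but the difference of 2.09 on the log2 scale had an adjusted p of 0.414 (SE 1.13, edgeR).

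Bmx in CD44LowKitPos, at 3.72, 22.0 and 23.7 CPM, was within the range of all CD44Neg libraries and 13.9-fold below CD44LowKitNeg. At E9.5 its library, at 23.7 CPM, lay above all 4 CD44Neg libraries of that stage and 2.75-fold above their mean. In CD44High it was found in replicate 22 alone, with 10 counts (2.72 CPM). Among the other kinases of the family, Tec alone was tested between CD44LowKitNeg and CD44Neg, and it was not called (log2 fold change 2.87, adjusted p = 0.0660 by edgeR, with an unadjusted p under 0.05, and no call by DESeq2 or limma voom). Btk was at 29.5 ± 25.4 CPM in CD44LowKitPos and 82.6 ± 14.0 in CD44High (SD, n = 3 each), a difference that was not called (log2 fold change 1.48, SE 1.54, adjusted p = 0.723 by edgeR).

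Arterial genes moved in the direction of Bmx. Of 16 arterial genes, 8 rose and none fell in CD44LowKitNeg against CD44Neg (median log2 fold change 1.62), where 4.94% of all genes tested rose. The Notch target Hey2 rose by 4.10, the Notch ligand Jag1 by 3.18, and the gap junction gene Gja5 by 2.49. Of 6 venous genes 4 fell and none rose (median -2.97), where 5.23% of all genes fell, with the transcription factor Nr2f2 at -4.01, Aplnr at -4.48, Nrp2 at -5.30 and Flt4 at -1.93. Several of these genes were shown by the study from the same libraries, so their directions are not independent evidence. Between CD44High and CD44LowKitPos, 7 of the 16 arterial genes fell and none rose, while 2.23% of all genes tested fell. All 8 endothelial markers fell in that comparison as well, and their part in it was not tested.

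**Figure D2:**
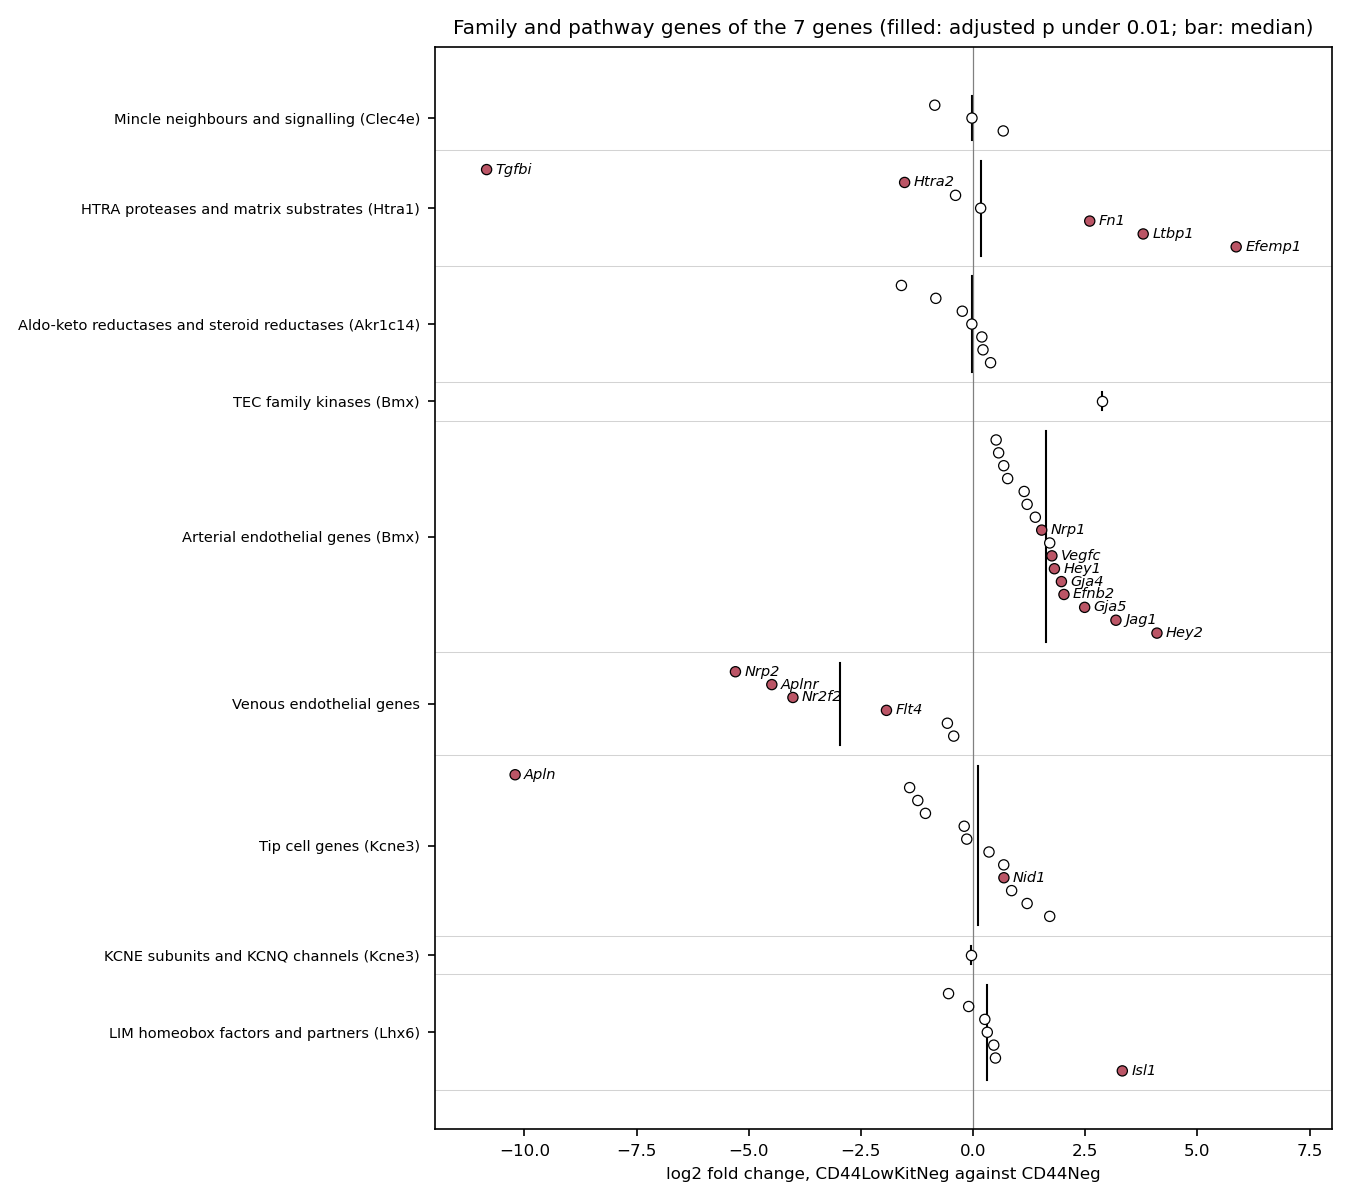
Fitted log2 fold change (horizontal axis) between CD44LowKitNeg and CD44Neg for the tested genes of the families and pathways of the 7 genes. Each point is a gene, filled where the adjusted p was under 0.01, and the vertical bar is the median of the list. Arterial genes lie to the right and venous genes to the left, while the lists of Akr1c14 and Kcne3 relatives have medians near 0.

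Lhx6 encodes a LIM homeobox transcription factor best known from cortical interneurons and from jaw and tooth mesenchyme. The gene lies on chromosome 2 (36081953 to 36105408, minus strand). It was detected in all 10 CD44Neg libraries, at 8.35 to 56.1 CPM with a median of 14.8, and had no count in any of the 6 CD44LowKitNeg libraries (2.72% of genes tested). CD44LowKitNeg was thus at least 49.6-fold lower. Within CD44Neg, the stages of Lhx6 overlapped. The means were 15.6 ± 8.40 CPM at E9.5 (SD, n = 4), 26.8 ± 25.6 at E10 (n = 3) and 21.6 ± 15.5 at E11 (n = 3), and E11 against E9.5 gave 0.48 on the log2 scale (SE 0.66, adjusted p = 0.809 by edgeR), or -0.30 without CD44Neg replicate 2. In CD44LowKitPos 1 count was found in replicate 18. In CD44High 12 counts (3.26 CPM) were found in replicate 22 and none in the others, and every library of both populations was below all of CD44Neg, as for 4.37% and 9.12% of genes tested.

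Of 19 LIM homeobox and partner genes, 7 were tested between CD44LowKitNeg and CD44Neg, and 1 was called, where 10.2% of all genes were. This was Isl1, a LIM homeobox factor of cardiac and motor neuron progenitors, which rose in CD44LowKitNeg (log2 fold change 3.33) from 8.02 ± 9.47 CPM (SD, n = 10) to 80.4 ± 38.8 (n = 6), and which was not called without CD44LowKitNeg replicate 13. Lhx1 and Lhx3 had no count in any library. Lmo2, a LIM-only partner in blood and endothelial transcription complexes, was at 91.2 ± 34.3 CPM in CD44Neg and 109 ± 37.7 in CD44LowKitNeg and was not called. Of 8 neural markers 6 had no count in CD44LowKitNeg, and the list's higher sum there, 111 to 683 CPM against 20.7 to 108 in CD44Neg, was nearly all Stmn2 (296 ± 215 CPM, n = 6).

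Fam167b lies on chromosome 4 (129576815 to 129578549, minus strand). It had no count in any CD44LowKitNeg or CD44LowKitPos library and 1 count in CD44High. In CD44Neg it was at 0.379, 1.43, 0.372 and 0.143 CPM at E9.5, at 34.2, 2.24 and 14.1 at E10, and at 33.6, 26.5 and 10.2 at E11. The E9.5 values came from 1 to 6 counts, and 3 of the 4 were below the floor. The lowest, 0.143, was a single count, so that the ranges of the 2 populations were kept apart at that end by 1 read. Every E10 and E11 library was above every E9.5 library. CD44LowKitNeg was at least 29.4-fold lower than CD44Neg over all stages, while its CD44Neg mean at E9.5 was 0.582 CPM.

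Between E11 and E9.5 in CD44Neg, Fam167b had the largest difference of the 6 genes tested (Clec4e was too low). The log2 fold change was 5.37 (SE 0.99, adjusted p = 0.0103 by edgeR's quasi-likelihood test), just short of the threshold of 0.01 that 77 of 11250 genes (0.684%) passed. At an adjusted p under 0.05 there were 2 of the 6 genes, Fam167b and Kcne3 (3.13% of all genes), and the same 2 at an unadjusted p under 0.05 (17.1%). Fam167b passed the filter on low counts through E10 and E11, and the CD44Neg libraries were among those that chose it. Nothing is therefore read from the shares, or from the calls of Fam167b, in these comparisons of stages. Fam167b was called by DESeq2 (adjusted p = 2.22e-06), and by edgeR without CD44Neg replicate 9 (adjusted p = 0.00522), while the adjusted p reached 0.0488 with another library left out. E10 against E9.5 gave 4.89 (SE 0.98, adjusted p = 0.0329), and E11 against E10 gave 0.48 (SE 0.89, adjusted p = 0.952), both by edgeR, the latter -0.042 without CD44Neg replicate 9. E10 against E9.5 had 2 of the 6 genes under 0.05 (Akr1c14 and Fam167b, 0.933% of all genes) and 2 at an unadjusted p (15.2%). E11 against E10 had 1 under 0.05 (Akr1c14, 0.0533%) and 2 at an unadjusted p (with Kcne3, 8.68%). In all 3 comparisons of stages, DESeq2 called 2 of the genes and limma voom none. The relative Fam167a was at 0.495 ± 0.894 CPM in CD44Neg (SD, n = 10), too low to be tested.

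Kcne3 encodes a single-span subunit that modifies the gating of the potassium channel Kcnq1 and is known as a gene of endothelial tip cells, which lead sprouting vessels. The gene lies on chromosome 7 (100176502 to 100184869, plus strand). In CD44Neg it was at 71.9, 205, 130 and 175 CPM at E9.5, at 166, 64.6 and 124 at E10, and at 499, 266 and 404 at E11. The E11 libraries were above all others, with log2 fold changes of 1.44 against E9.5 (SE 0.35, adjusted p = 0.0360) and 1.72 against E10 (SE 0.38, adjusted p = 0.182), with edgeR. Neither passed the threshold, while DESeq2 called both.

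In CD44LowKitNeg, Kcne3 had no count in 3 of 6 libraries. It was at 12.1 CPM in replicate 14 at E9.5, at 5.82 in replicate 16 at E10 and at 0.620 in replicate 13 at E11. The lowest CD44Neg library lay 5.36-fold above the highest of these, and the ratio of means was 68.4, or 164 without CD44LowKitNeg replicate 14. No count was found in CD44LowKitPos, as for 3.65% of genes tested, which set it at least 479.6-fold below CD44Neg.

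Kcne3 was detected in 2 of 3 CD44High libraries. It was at 26.9 and 27.4 CPM in replicates 20 and 21 and had no count in replicate 22, below every CD44Neg library in each case. The mean was at least 41.2-fold above CD44LowKitPos, or at least 61.9-fold without CD44High replicate 22. Of 9 KCNE and KCNQ genes, Kcnq1 alone was tested between CD44LowKitNeg and CD44Neg, at 12.9 ± 12.8 CPM (SD, n = 6) and 13.4 ± 5.90 (n = 10), and was not called by edgeR, DESeq2 or limma voom or at an unadjusted p under 0.05. Of 12 tip cell genes, 1 rose and 1 fell (median log2 fold change 0.11), where 10.2% of all genes were called. The basement membrane gene Nid1 rose by 0.69, and Apln, at 25.0 ± 11.5 CPM in CD44Neg (SD, n = 10), had no count in any CD44LowKitNeg library.

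**Figure D3:**
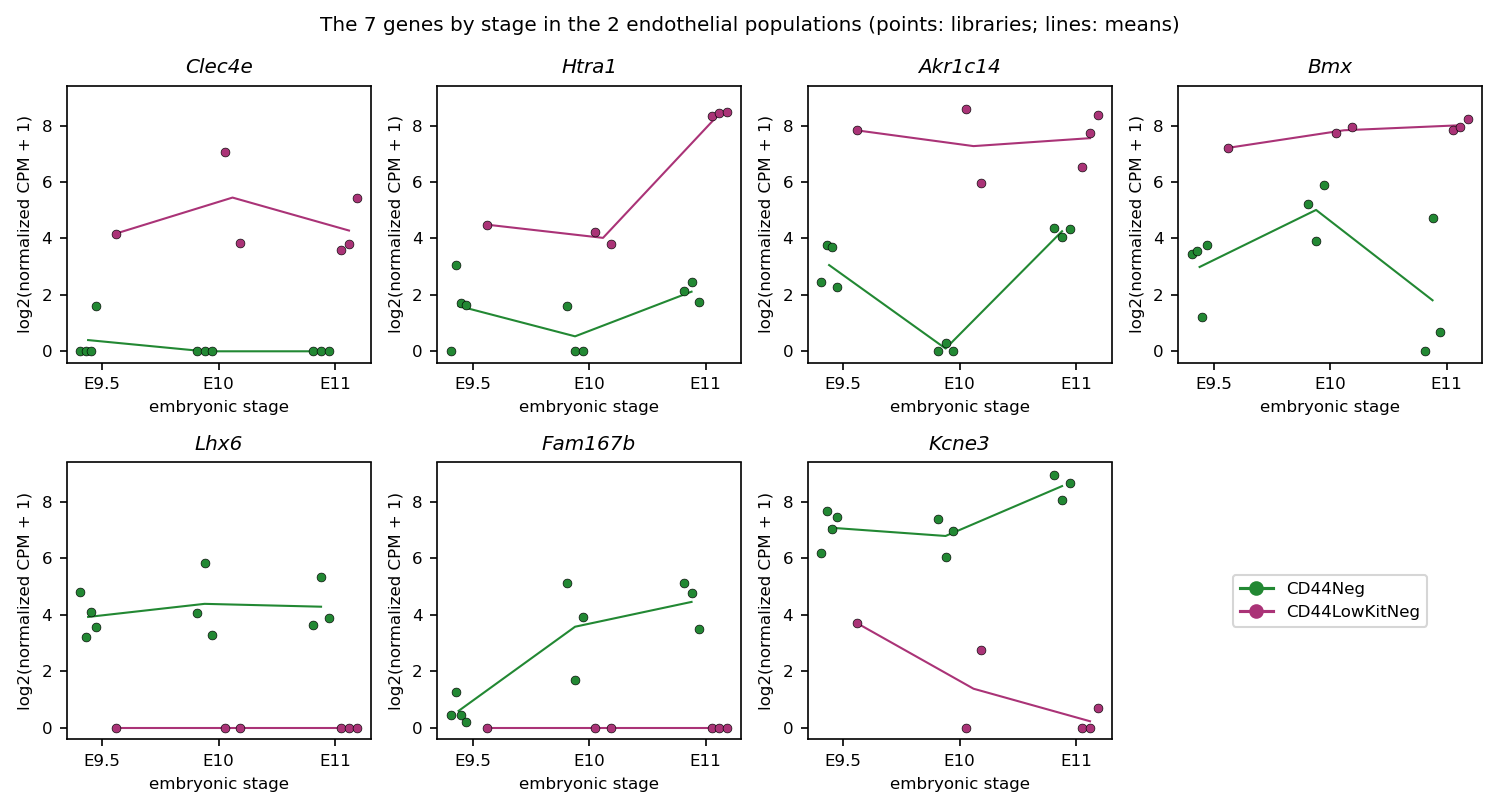
Level of the 7 genes by stage, as log2(normalized CPM + 1), in CD44Neg (green) and CD44LowKitNeg (purple). Points are libraries and lines join the means of each stage. Htra1 steps up at E11 in CD44LowKitNeg, Akr1c14 dips at E10 in CD44Neg, and Fam167b in CD44Neg is near 0 at E9.5.

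CD44High against CD44LowKitPos was the tested comparison between populations that had no part in choosing the genes. Its fit shared the spread over all 22 libraries, including those that chose the genes. Its SEs and p-values are therefore not independent of the choice. CD44High was sampled at E11 alone and CD44LowKitPos at E9.5 and E10 alone, so population and stage cannot be told apart. The Rn45s share was 16.6% to 23.9% in CD44High and 6.82% to 9.26% in CD44LowKitPos, and leaving Rn45s out changed no call among the 7 genes. None of the 7 genes was called by edgeR's quasi-likelihood test at an adjusted p under 0.01, where 390 of 12949 genes (3.01%) were. At an adjusted p under 0.05 there were 2, Akr1c14 and Kcne3 (6.05% of all genes), and at an unadjusted p under 0.05 there were 6 (17.8%). The filter on low counts ran over all 22 libraries, and Akr1c14, Kcne3, Lhx6 and Fam167b, with counts in at most 2 of these 6 libraries, passed it through the populations that chose them, so nothing is read from these shares. DESeq2 called Akr1c14 and Kcne3, and limma voom called none. The nearest to the threshold were Kcne3, higher in CD44High (log2 fold change 9.73, SE 2.48, adjusted p = 0.0190), and Akr1c14, lower (-10.38, SE 2.74, adjusted p = 0.0237). Both fits set a population without any count against another, so their size depends on the prior count, and the bounds above are the firmer values. With 1 library left out, the adjusted p by edgeR ran from 0.00910 (without CD44High replicate 22) to 0.0750 for Kcne3, and from 0.00618 (without CD44LowKitPos replicate 17) to 0.0804 for Akr1c14. Under other tools and settings the adjusted p reached 0.248 for Kcne3 and 0.333 for Akr1c14.

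Of the others, Clec4e was lower in CD44High (log2 fold change -4.92, SE 1.60, adjusted p = 0.0725), as were Bmx (-4.26, SE 1.45, adjusted p = 0.0903) and Htra1 (-5.21, SE 2.04, adjusted p = 0.155), by edgeR's quasi-likelihood test. The ranges of these 3 genes did not overlap, as for 12% of genes in that direction. For Lhx6 (adjusted p = 0.161) and Fam167b (adjusted p = 0.683) few counts entered the fit, and the sign of the Lhx6 difference turned from 3.98 to -1.68 without CD44High replicate 22. With stage as a covariate, Htra1 was called (log2 fold change -8.01, adjusted p = 0.00393 by edgeR), while under other settings its adjusted p reached 0.662. The E11 term of that fit came from CD44Neg and CD44LowKitNeg, the libraries that chose the gene, so the call is not independent of the choice.

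**Figure D4:**
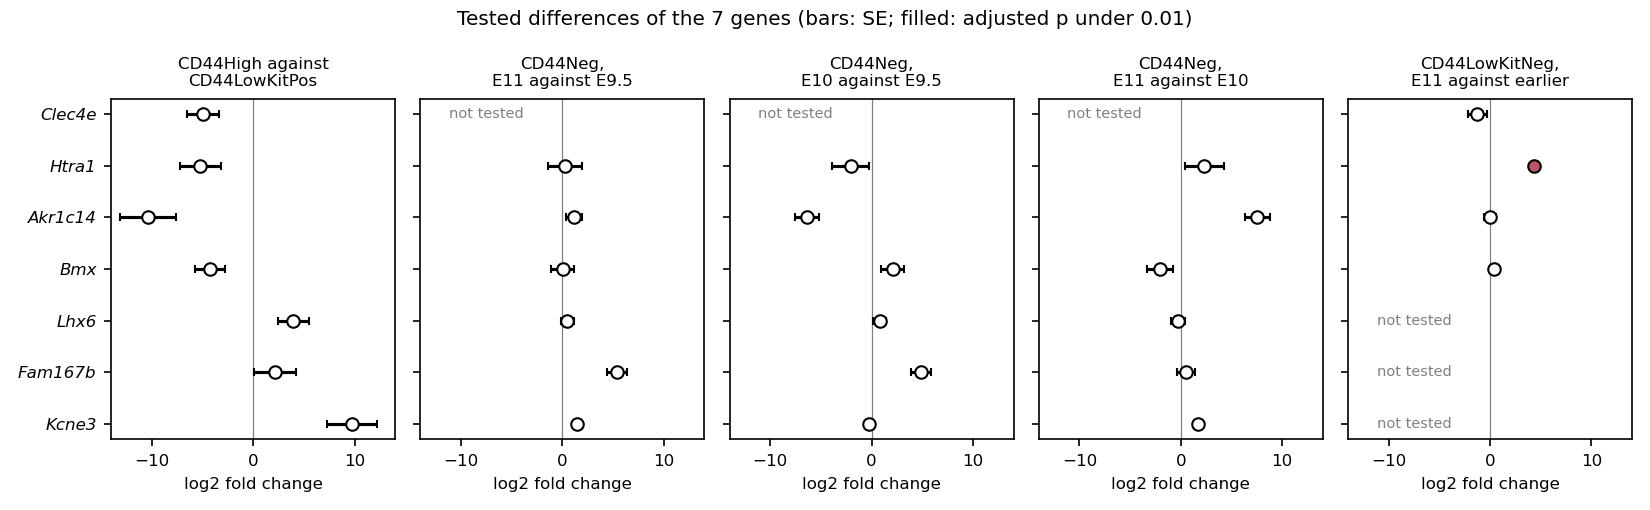
Fitted log2 fold change (horizontal axis) of the 7 genes between CD44High and CD44LowKitPos, which had no part in choosing them, and in contrasts of stage on the libraries that did, with the SE as bars. Filled points had an adjusted p under 0.01. Htra1 within CD44LowKitNeg, at 4.34, is the one filled point, and its bar is narrower than those of CD44High against CD44LowKitPos.

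Among 12942 genes, the patterns most like each of the 7 were found by Pearson correlation of log2 CPM over the 22 libraries. These points share populations and stages, and the population difference that chose the genes enters every value, so the correlations are a description. Clec4e was most like Cbfa2t3, a corepressor of blood progenitors (r = 0.86), then Syne4 and the desmosomal gene Dsp. Cbfa2t3 was at 73.3 ± 14.5 CPM in CD44LowKitNeg (SD, n = 6), 59.9 ± 5.67 in CD44LowKitPos (n = 3) and 22.4 ± 7.21 in CD44Neg (n = 10). Htra1 was most like the microfibril gene Mfap5 (r = 0.89), with Gkn3 and 5930403L14Rik next, and Akr1c14 was most like Ankrd29 (r = 0.92), Casp6 and Skil. The 3 nearest to Bmx, namely the laminin chain Lama3, dystrophin (Dmd) and Pi16, were at 138 ± 74.4, 94.0 ± 22.9 and 22.1 ± 7.63 CPM in CD44LowKitNeg, and Lama3 and Dmd had no count in CD44High.

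On the side of CD44Neg, Lhx6 was most like Kbtbd11 (r = 0.94), Apln (r = 0.93) and the BH3-only gene Bik. Kbtbd11 and Apln, like Lhx6, had no count in any CD44LowKitNeg library. Kcne3 was most like Nrp2 (r = 0.91), a receptor of venous and lymphatic endothelium, which was at 81.4 ± 39.3 CPM in CD44Neg (SD, n = 10) and 2.02 ± 2.59 in CD44LowKitNeg (n = 6). Fam167b was most like Tnfrsf9, Actg1 and Actr1a. Among the 7 genes, the highest positive correlation was that of Htra1 and Akr1c14 (r = 0.83 over 22 libraries, 0.66 within the 10 CD44Neg libraries). The sign of a pair could differ within CD44Neg, as for Akr1c14 and Bmx, with r = 0.59 over all libraries and -0.70 within CD44Neg.

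**Figure D5:**
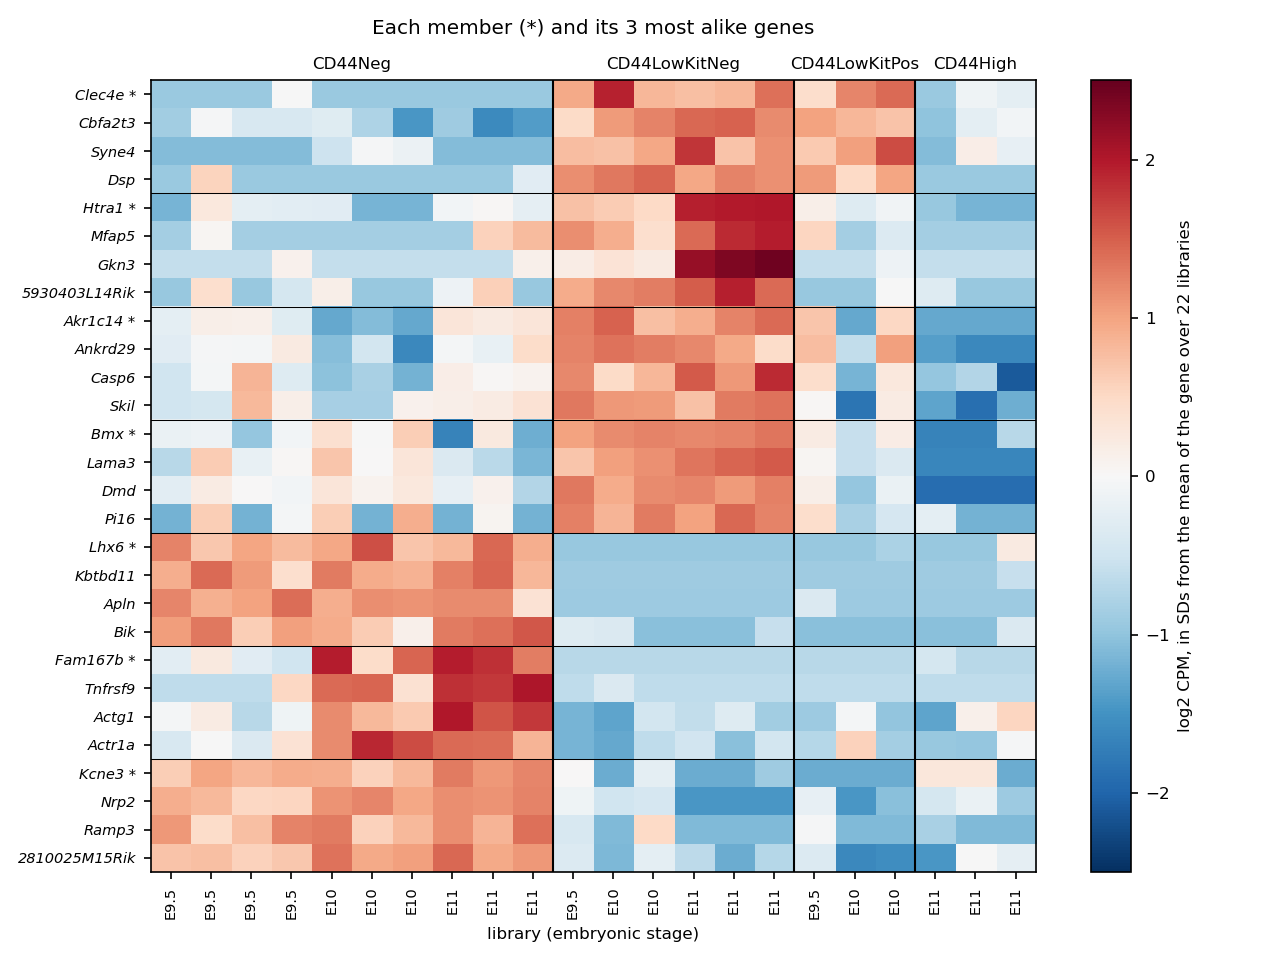
Log2 CPM of each of the 7 genes (asterisk) and its 3 most alike genes in the 22 libraries, each gene centred on its mean and divided by its SD over the libraries. Columns are libraries by population and stage. Red is above and blue below the mean of a gene. Htra1 and Gkn3 are deepest red in the 3 E11 libraries of CD44LowKitNeg, and Fam167b and its neighbours are red mostly in the E10 and E11 libraries of CD44Neg.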

How the data were processed

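Per the labels and the study's methods, 25 cells per library were sorted, amplified for Smart-seq2 and sequenced, reads were clipped with FASTX, mapped with STAR (build mm10) and counted with htseq-count, and FastQC is named in the submitters' processing notes. Versions, the strand setting and the handling of reads matching several genes are not given in the sources used here. The authors deposited raw read counts per gene for 22 libraries, without normalization. No column of the table was left unassigned. Each library is a replicate of its population.

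The 7 genes and all lists were chosen with earlier results of these data known. Counts were tested with edgeR 4.0.16 (R 4.3.3, limma 3.58.1): filterByExpr (minimum count 10, minimum total 15), TMM scaling, glmQLFit and glmQLFTest, Benjamini-Hochberg adjustment over all genes tested, and calls at an adjusted p under 0.01. Separate fits held all 22 libraries, the 16 endothelial libraries, the 10 CD44Neg libraries, the 6 CD44LowKitNeg libraries, and the 11 endothelial libraries of E10 and E11 with a population by stage term. Normalized CPM used TMM over the 22 libraries, and log2 CPM a prior count of 2. Ratios are of means of CPM. Where a population had no count, 3 counts per library stood in for it and the ratio is a bound. The fits were tested on simulated data. Named genes were the 7, the 3 most alike of each, called or descriptive genes of each list, and Cd44 and Kit as sorting markers. Alternatives were DESeq2 1.42.0, limma voom, other filters, scalings and thresholds, and leaving out each library. Intervals and floors cover counting error only, and amplified reads without molecular identifiers are not independent molecules. All 20 pairings within a population at 1 stage differed by more than sampling noise (chi-square per degree of freedom 16.997 to 85.2), so none was a copy of another. Amplified reads can exceed that noise in any case, so this does not show that the libraries are independent samples. Each library counted once. Promoters were read from RefSeq GRCm38.p6, and positions from GENCODE M21 on GRCm38. Figures were drawn with matplotlib 3.10.9.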

Additional observations from a re-analysis of the deposited data

Results flagged for a closer look

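In 19 groups of 4 to 10 libraries tested for a library far from the rest by Dixon's ratio, 3 passed the 95% limit. Chance would give about 0.95 for separate groups of normally distributed values, which these were not. All 3 were for Clec4e. CD44Neg replicate 7, at 2.01 CPM, was the highest of CD44Neg and of its E9.5 libraries, in each case against 0 in all others. This is 1 value flagged in nested groups, and with all others at 0 any count gives a ratio of 1. Nothing is therefore read from the number flagged. CD44LowKitNeg replicate 15, at 132 CPM, was the highest of CD44LowKitNeg, where the next library was at 42.1.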

How the results depend on the processing

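Counts of called genes moved with the tool and the threshold. CD44High against CD44LowKitPos gave 390 calls, 716 with DESeq2's Wald test, 784 at an adjusted p under 0.05, 204 with only the 6 libraries compared and 251 to 408 leaving out each library. CD44LowKitNeg against CD44Neg gave 1121, 1749 with DESeq2, 2217 at 0.05 and 875 to 1222 leaving out each library. Within CD44Neg, E11 against E9.5 gave 77, 279 without a filter, 421 with DESeq2, 172 with limma voom, 352 at 0.05 and 8 to 98 leaving out each library. E10 against E9.5 gave 2, then 116, 231, 22 and 105 in the same order, 0 with only the 2 stages compared and 0 to 3 leaving out each library. E11 against E10 gave 0, then 24, 46, 4 and 6, 1 with only the 2 stages and 0 to 1. Within CD44LowKitNeg, E11 against earlier stages gave 19, then 163, 558, 68 and 235, 1 against E10 only and 0 to 2 leaving out each library. The population by stage term gave 1, 190 without a filter, 118 with DESeq2, 23 at 0.05 and 0 to 3. The cause was not tested.

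The differences named here changed sign, or came to 0 for Fam167b between CD44High and CD44LowKitPos, under an alternative. With limma voom, Bmx in CD44Neg (E11 against E9.5) was -2.21 and Akr1c14 in CD44LowKitNeg (E11 against earlier) 0.15. Leaving out each library gave, for CD44High against CD44LowKitPos, Lhx6 -1.68 to 5.59 and Fam167b 0 to 2.57, for E11 against E9.5 in CD44Neg, Htra1 -0.18 to 1.21, Bmx -4.49 to 0.59 and Lhx6 -0.30 to 0.90, for E10 against E9.5, Lhx6 -0.34 to 1.198 and Kcne3 -0.62 to 0.012, and for E11 against E10, Lhx6 -1.08 to 0.83 and Fam167b -0.042 to 1.52. In CD44LowKitNeg it gave Clec4e -2.14 to 0.57 and Akr1c14 -0.51 to 0.59, and for the population by stage term Htra1 -2.83 to 2.79 and Kcne3 -8.90 to 1.54. No paired analysis was run. The replicate numbers run through the whole series and do not link libraries of different populations. With stage, which the label dates follow, as a covariate, there were 354 calls for CD44High against CD44LowKitPos and 1317 for CD44LowKitNeg against CD44Neg. With 3 libraries each in CD44LowKitPos and CD44High, differences of low genes were near the counting floor.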
